A study of Arabidopsis thaliana with 12 samples.

Results

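EXPA7, EXPA18 and GH9C1 are 3 genes of the growing root hair wall, and their transcript levels were followed here in whole Arabidopsis thaliana plants across 4 treatments. They were chosen by name, as wall genes known from root hair cells, with their large spread between replicates in these data already known. Each is read by 1 probe set that the platform annotation pairs with that gene alone, and they are 3 of 13356 genes that have such a probe set. The loci are AT1G12560 for EXPA7, AT1G62980 for EXPA18 and AT1G48930 for GH9C1. All 3 passed the filter on dim probe sets, and the lowest signal of any of them on any array, 258.7, lay above the filter level of 47.4.

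A root hair is the outgrowth of a single epidermal cell of the root, and it lengthens by loosening and adding wall at its tip. EXPA7 and EXPA18 encode alpha-expansins, secreted proteins that let cellulose and xyloglucan slip past each other without cutting them, and both are used as markers of root hair cells. GH9C1 encodes a secreted endoglucanase with a carbohydrate-binding module, an enzyme class that cuts glucan chains. Auxin promotes root hair outgrowth and elongation, in part through basic helix-loop-helix regulators such as RSL4 that switch on wall genes.

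The plants were Col-0 seedlings aged 7 days, grown in shaken liquid half-strength Murashige and Skoog medium at 21 °C under 24 h of light. L-AOPP is an aminooxy compound that the submitters used to inhibit auxin biosynthesis, IAA is the main natural auxin, and indole-3-pyruvic acid, IPyA, is the compound from which plants make it. Mock plants received only the solvent DMSO, and the other groups received 50 µM L-AOPP for 3 h, alone or with 1 µM IAA or with IPyA added after 1 h, so that IAA or IPyA acted for 2 h. The IPyA dose is 100 µM in the sample descriptions and 0.1 µM in the treatment protocol. Each group had 3 arrays, numbered as replicates 1 to 3, and the 12 arrays carry RNA of whole plants, in which root hairs are a small part. The labels do not say whether replicates are separate cultures. The p-values therefore rest on a spread among arrays that could be technical. Precision is limited by having 3 arrays a group.

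The values are MAS5 signals on a linear scale, brought by the scaling to a trimmed mean between 500.04 and 500.05 on each array. Median signals ran from 169.2 to 185.45. The IAA treatment itself was visible: the auxin-induced GH3.3 gene read 8768.6 to 10386.7 with L-AOPP+IAA and at most 1415.3 on any other array, and the homeobox gene HAT2 read 2028.6 to 2426 and at most 487.7. Shoot photosynthesis genes (5 of 33 with a named probe set) and other root markers (2 of 28) had 0 probe sets that stayed near 0 on every array, which is no proof of detection.

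The arrays of replicate 1 stood apart for all 3 genes, in every treatment. In mock plants EXPA7 read 1928.5, 258.7 and 320.2 in replicates 1, 2 and 3. With L-AOPP it read 1589.6, 582 and 774.8. With L-AOPP+IAA it read 1630.9, 415.9 and 442.3, and with L-AOPP+IPyA 1229.9, 337.4 and 474.4. The lowest replicate 1 array was therefore above the highest array of replicates 2 and 3, and the ratio of replicate 1 to the higher of the other two was between 2.05 (L-AOPP) and 6.02 (mock).

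EXPA18 gave the same split. Its signals in replicates 1, 2 and 3 were 1207.8, 288.4 and 341.6 in mock and 1144.8, 549 and 764.5 with L-AOPP. They were 1062.2, 272.4 and 394.9 with L-AOPP+IAA and 964.6, 333.2 and 431.9 with L-AOPP+IPyA. Here, too, the 4 arrays of replicate 1 did not overlap the other 8, and the narrowest gap between replicate 1 and the next array was with L-AOPP.

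GH9C1 read 2240.3, 425 and 390.5 in mock and 1869.1, 771.2 and 873.5 with L-AOPP. It read 2009.2, 580.1 and 444.7 with L-AOPP+IAA and 1753.4, 438.6 and 454 with L-AOPP+IPyA. Replicate 1 again lay above all other arrays, by 2.14 times with L-AOPP and 5.27 times in mock over the higher of replicates 2 and 3. All 4 arrays of replicate 1 were above the other 8 for 5.07% of the 15922 tested probe sets and below them for 4.69%.

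**Figure D1:**
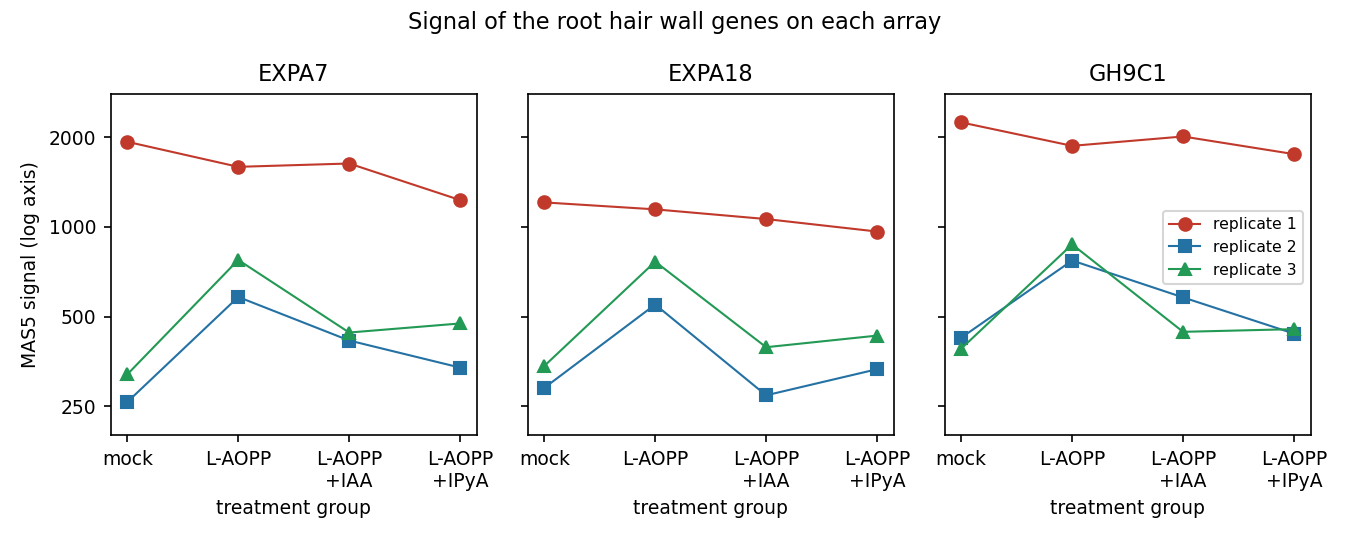
MAS5 signal (log axis) of EXPA7, EXPA18 and GH9C1 on each of the 12 arrays, by treatment group, with a line joining the arrays of one replicate number. Replicate 1 lies above every array of replicates 2 and 3 in all 3 panels, and within replicates 2 and 3 L-AOPP is the highest group.

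Replicate numbers were compared in a limma fit with treatment group and replicate number as terms, 4 arrays against 4. EXPA7 was lower in replicate 2 than in replicate 1 with a log2 difference of -2.05 ± 0.19 (SE), 4.13-fold, and lower in replicate 3 with -1.72 ± 0.19. EXPA18 was lower with log2 differences of -1.66 ± 0.15 and -1.25 ± 0.15. GH9C1 was lower with -1.87 ± 0.17 and -1.94 ± 0.17. All 3 genes were at least 2-fold below replicate 1 in both contrasts. Over all tested probe sets, falls with an adjusted p under 0.05 were common, at 11.9% of probe sets in replicate 2 and 15.8% in replicate 3, but called falls of at least 2-fold were 0.879% and 1.17% of them. Ordered by the smaller of its falls, GH9C1 stood 12th, EXPA7 23rd and EXPA18 59th of 15922. Since the spread of these genes between replicate numbers was known when they were chosen, their replicate differences and ranks are a description, and no p-value is given for them.

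Replicates 2 and 3 lay closer to each other. Their log2 difference (replicate 3 against 2) was 0.33 ± 0.19 for EXPA7, 0.41 ± 0.15 for EXPA18 and -0.07 ± 0.17 for GH9C1, in a contrast that called 30.3% of probe sets. Of the variance of log2 signal over the 12 arrays, replicate number took 84.5% for EXPA7, 80.2% for EXPA18 and 87.6% for GH9C1, and treatment took 8.03%, 13.1% and 6.60%. The median tested probe set had 47.4% with replicate number and 17.5% with treatment. The upper decile of probe sets began at 81.4% with replicate number, so EXPA18 lay just below it and EXPA7 and GH9C1 above it.

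Other measures that moved with replicate number are given here, and their part in the split was not tested. The 3'/5' ratio of the ubiquitin control averaged 2.45 ± 0.190 in replicate 1, 2.14 ± 0.0706 in replicate 2 and 2.11 ± 0.0773 in replicate 3 (SD over 4 arrays). That of the GAPDH control was 1.36 ± 0.0749, 1.38 ± 0.106 and 1.17 ± 0.0486. That of the actin control was the highest and was lower in replicate 1, at 10.5 ± 2.64, than in replicates 2 and 3, at 12.9 ± 1.36 and 12.3 ± 1.42. PYK10, a beta-glucosidase gene of root and hypocotyl, read 21959.4 to 22428.6 in replicate 1 and 16862.7 to 19815.7 in the others. It was lower by -0.28 on the log2 scale in replicate 2 (adjusted p = 0.00113) and in replicate 3 (adjusted p = 0.000812). UPB1, the other root marker with a probe set, is a transcription factor gene and read 123.5 to 249.9, 88.8 to 260.2 and 95.6 to 179.9 in replicates 1, 2 and 3 (-0.33, adjusted p = 0.0830, and -0.41, adjusted p = 0.0305). The summed signal of both root markers is nearly all PYK10, at 22209.3 to 22608 in replicate 1, 16985.6 to 19904.5 in replicate 2 and 17415.8 to 19432.1 in replicate 3. Those of the shoot photosynthesis genes were 80977.2 to 94116.8, 81541.7 to 88343.5 and 69144.4 to 74420. Leaf and trichome markers (5 of 15 with a named probe set, 4 tested) summed to 1400.8 to 1494.8, 1451.1 to 1597 and 1616.4 to 1692.6, also with 0 probe sets near 0 on every array. In these bulk samples, fewer root hair cells and less RNA per root hair cell cannot be told apart.

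Among 77 other genes of root hair growth and wall, 4 had a named probe set and all 4 were tested. The rest were not matched to a probe set by name, so these 4 do not stand for the whole list. XTH26, a xyloglucan endotransglucosylase/hydrolase gene active in root hairs, had the split of the 3 wall genes. It read 391.5, 325, 241.2 and 198.1 in replicate 1 for mock, L-AOPP, L-AOPP+IAA and L-AOPP+IPyA, and 43.4 to 254.4 in replicates 2 and 3. One of these 8 arrays, L-AOPP replicate 3, lay above the lowest arrays of replicate 1. XTH26 was lower by -1.87 ± 0.28 in replicate 2 (adjusted p = 0.000388) and by -1.44 ± 0.28 in replicate 3 (adjusted p = 0.00188). FER, a receptor kinase gene, was lower by -0.21 (adjusted p = 0.0157) and -0.37 (adjusted p = 0.000317). SCN1, a gene for a regulator of ROP GTPases, was called only in replicate 3 (-0.24, adjusted p = 0.00773). DER1, which is known for an ER protein-degradation factor, was not called (0.04 and 0.17). The label DER1 also stands for an actin mutant with deformed root hairs, which is a different gene and not the one read here. The median of these 4 genes, with DER1 counted, was -0.16 and -0.30, beside 0.02 and -0.01 over all tested probe sets.

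Genes of the members' families were called in both directions. In replicate 2 against replicate 1, 15% of all probe sets were called higher and 11.9% lower, and in replicate 3 these shares were 15.6% and 15.8%. Of 11 tested other expansin genes, 4 were called higher and 2 lower in replicate 2 against replicate 1, and 1 higher and 3 lower in replicate 3. EXPA9 was called lower in both (-0.95 and -0.61), as was EXPA4 (-0.33 and -0.58), while EXLA1 (1.05) and EXPA16 (1.21) were higher in replicate 2. EXPA8 had the largest fall of these expansins in replicate 3 (-0.85, adjusted p = 1.07e-05) and was not called in replicate 2 (-0.06). Of 8 tested other GH9 endoglucanase genes, 0 were called in replicate 2 and 1 was called lower in replicate 3, GH9B7 (-0.26, adjusted p = 0.00548). None of these 19 fell 2-fold. Of the 5 shoot photosynthesis genes, 2 were lower in replicate 2 and 4 in replicate 3, the strongest being PSAE-1 at -0.55. Epidermal patterning genes (3 tested) had 1 call, the bHLH gene ATMYC1, at 0.34 and 0.43. The only tested root hair regulator, EIN3, a transcription factor gene of ethylene signalling, had none.

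**Figure D2:**
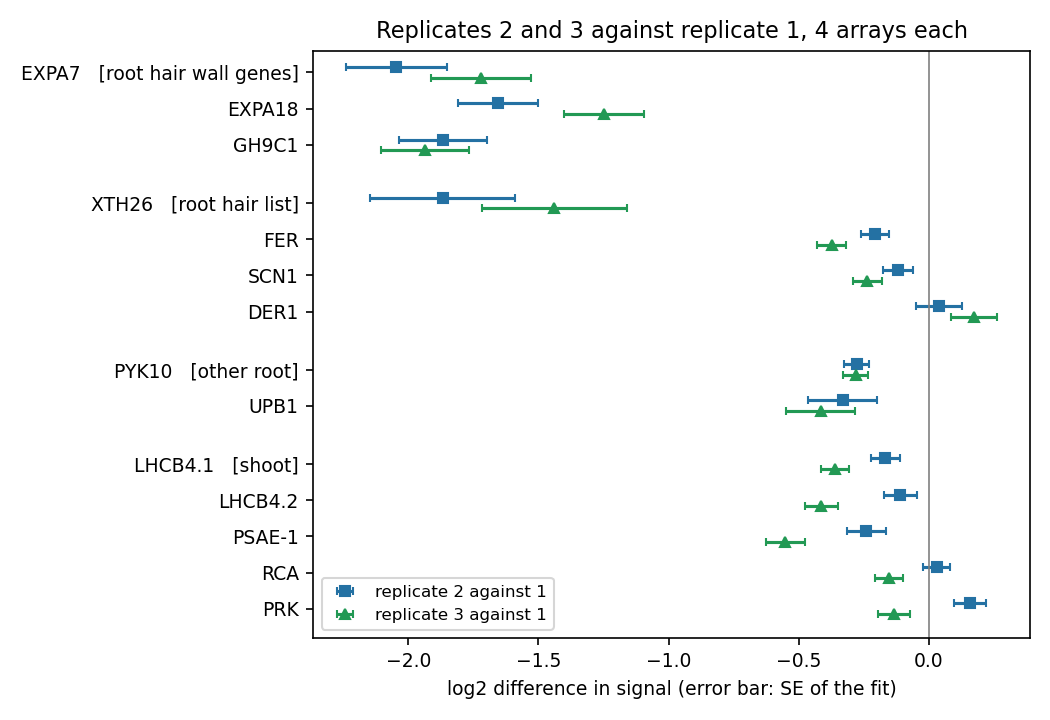
Log2 difference in signal of replicate 2 (squares) and replicate 3 (triangles) against replicate 1, 4 arrays each, with the SE of the fit as error bars. The 3 wall genes and XTH26 lie between -1.25 and -2.05, while the other genes drawn lie between -0.55 and 0.17. DER1, drawn with the root hair list, is the gene of the ER protein-degradation factor and gives the upper end, 0.17.

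Whether the inhibitor changed these genes was asked by comparing L-AOPP with mock. In replicates 2 and 3 all 3 genes were about 2-fold higher with L-AOPP, and in replicate 1 they were slightly lower. The log2 difference of EXPA7 was -0.28, 1.17 and 1.27 in replicates 1, 2 and 3. That of EXPA18 was -0.08, 0.93 and 1.16, and that of GH9C1 was -0.26, 0.86 and 1.16. Being higher in replicates 2 and 3 and lower in replicate 1 was shared by 14.6% of tested probe sets. Mock was the highest group in replicate 1, and L-AOPP in replicates 2 and 3, for each of the 3 genes and for 3.99% of probe sets.

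Over all 12 arrays, none of the 3 differences passed. Without pairing, limma gave a log2 difference of 0.72 ± 0.78 for EXPA7 (95% interval -0.98 to 2.43), 0.67 ± 0.61 for EXPA18 (-0.67 to 2.01) and 0.59 ± 0.77 for GH9C1 (-1.10 to 2.27), each with an adjusted p of 1.00. Such intervals, taken without pairing, cover a fall as well as a rise of more than 2-fold for GH9C1. No probe set was called in that fit (0% of 15922 by limma, with 3.32% at an unadjusted p under 0.05). With the replicate number as a block, the same differences had standard errors of 0.22, 0.18 and 0.20, and adjusted p-values of 0.178, 0.115 and 0.211. The 95% intervals with the block were 0.24 to 1.21, 0.29 to 1.06 and 0.16 to 1.01. They lie above 0 but are not adjusted for the number of probe sets. The block fit called 0.578% of probe sets.

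Leaving out replicate 1 of every group changed the call. Each replicate number was left out in turn, but replicate 1 is the one in which these genes stood apart. The adjusted p-values of the members without replicate 1 are therefore a description and no independent test. In the block fit of replicates 2 and 3, EXPA7 was 2.33-fold higher with L-AOPP (1.22 ± 0.12, adjusted p = 0.00114), EXPA18 2.06-fold (1.05 ± 0.12, adjusted p = 0.00229) and GH9C1 2.01-fold (1.01 ± 0.14, adjusted p = 0.00478). In that fit 0.628% of probe sets were called higher. XTH26 was also called higher (1.65 ± 0.29, adjusted p = 0.0179), the only one of the 4 genes tested from the root hair list, DER1 among them. XTH26 has the same replicate 1 split, so its values without replicate 1 are a description too. EXPA15, at 0.54 (adjusted p = 0.0467), was the only one of the 11 other expansin genes and none of the 8 GH9 genes was called. Of the 10 tested early auxin genes, GH3.3 was called higher with L-AOPP (0.73, adjusted p = 0.0227) and 0 lower. Over all 12 arrays 10 of these 10 lay above 0 (median 0.23, against 0.01 over all probe sets) and 0 were called. Without replicate 2 the differences were 0.50, 0.54 and 0.45 (EXPA7, EXPA18, GH9C1; adjusted p 0.575 to 0.659), and without replicate 3 they were 0.45, 0.43 and 0.30 (0.554 to 0.686). XTH26 was not called in these fits either (0.81, adjusted p = 0.603, and 0.57, adjusted p = 0.633). Over all 12 arrays 0 of the 4 genes of the root hair list were called. The fits without replicate 2 and without replicate 3 called 0% and 0.0377% of probe sets. The rise with L-AOPP therefore rests on 2 pairs of arrays, and the third pair does not show it.

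**Figure D3:**
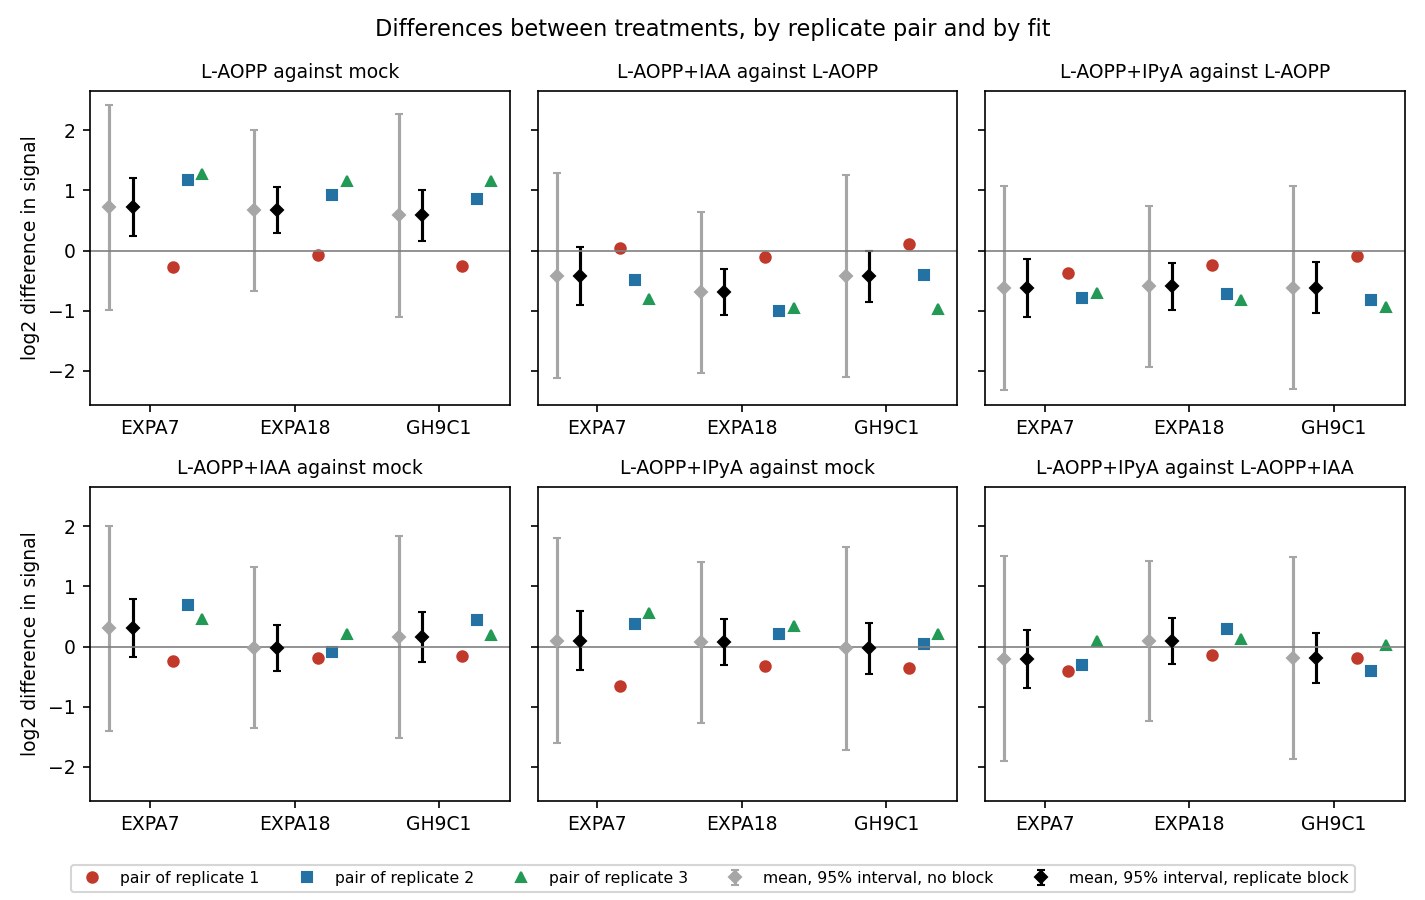
Log2 differences in signal for 6 treatment comparisons, with the difference within each replicate pair (coloured points) and the mean with its 95% interval in the fit without pairing (grey) and with the replicate number as a block (black). For L-AOPP against mock, the pairs of replicates 2 and 3 lie between 0.86 and 1.27 and those of replicate 1 between -0.28 and -0.08.

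The next comparison asks whether auxin added to inhibited plants changed these genes. In replicates 2 and 3 all 3 genes were lower with IAA than with L-AOPP alone, and in replicate 1 they were nearly level. The log2 differences in replicates 1, 2 and 3 were 0.04, -0.48 and -0.81 for EXPA7, -0.11, -1.01 and -0.95 for EXPA18, and 0.10, -0.41 and -0.97 for GH9C1. Over 12 arrays without pairing they averaged -0.42 ± 0.78, -0.69 ± 0.61 and -0.43 ± 0.77, each with an adjusted p of 1.00, where 0.396% of probe sets were called. With the block, EXPA18 came closest (95% interval -1.07 to -0.31, adjusted p = 0.0507), followed by GH9C1 (-0.85 to -0.0031, adjusted p = 0.308) and EXPA7 (-0.90 to 0.07, adjusted p = 0.404). That fit called 3.71% of probe sets.

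In the block fit without replicate 1, which is again a description for the members, all 3 genes fell with IAA. EXPA18 fell 1.98-fold (-0.98 ± 0.12, adjusted p = 0.00120), GH9C1 1.62-fold (-0.69 ± 0.14, adjusted p = 0.0180) and EXPA7 1.57-fold (-0.65 ± 0.12, adjusted p = 0.0167), where 1.31% of probe sets were called lower. XTH26 fell too (-1.27 ± 0.29, adjusted p = 0.0377), also a description. It was not called without replicate 2 (-1.10, adjusted p = 0.374) or without replicate 3 (-0.60, adjusted p = 0.531). The early auxin genes went the other way: 7 of 10 tested were called higher and 0 lower in the fits of all arrays and in the one without replicate 1, among them GH3.3 (3.58) and HAT2 (2.32). With the block, 3 of the 11 other expansin genes were called higher, among them EXLA1 (0.97), and 2 lower, EXPA9 (-0.56) and EXPA15 (-0.45). The 8 other GH9 genes had 0 calls. UPB1 was called lower (-1.16, adjusted p = 0.000925 with the block and 0.0439 without it), also without replicate 1 (-1.23), replicate 2 (-0.96) or replicate 3 (-1.28). Without replicate 2 the differences of EXPA7, EXPA18 and GH9C1 were -0.39, -0.53 and -0.43 (adjusted p 0.507 to 0.745). Without replicate 3 they were -0.22, -0.56 and -0.15 (0.305 to 0.837). These fits called 0.747% and 1.21% of probe sets.

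The comparison with IPyA asks whether the precursor acts on these genes. All 3 genes were lower with L-AOPP+IPyA than with L-AOPP alone in 3 of 3 pairs, as 16.6% of tested probe sets were. The differences in replicates 1, 2 and 3 were -0.37, -0.79 and -0.71 for EXPA7, -0.25, -0.72 and -0.82 for EXPA18, and -0.09, -0.81 and -0.94 for GH9C1. Means of -0.62, -0.60 and -0.62 had 95% intervals of -2.33 to 1.08, -1.94 to 0.74 and -2.30 to 1.07 without pairing (adjusted p = 1.00 each, 0% of probe sets called by limma, 2.3% at an unadjusted p under 0.05). With the block the adjusted p-values were 0.361, 0.267 and 0.298, where 0.176% of probe sets were called. The 95% intervals with the block were -1.11 to -0.14, -0.98 to -0.21 and -1.04 to -0.19. They lie below 0 but are not adjusted for the number of probe sets.

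Without replicate 1, and with the same limit, the block fit called all 3 genes lower with IPyA. EXPA7 fell by 0.75 ± 0.12 on the log2 scale (adjusted p = 0.0330), EXPA18 by 0.77 ± 0.12 (adjusted p = 0.0224) and GH9C1 by 0.88 ± 0.14 (adjusted p = 0.0231). In that fit 0.214% of probe sets were called lower, and XTH26 was one of them (-1.69 ± 0.29, adjusted p = 0.0386). Without replicate 2 the adjusted p was 0.888 for each of the 3 genes, and without replicate 3 it was 0.573 to 0.595, in fits that called 0% and 0.0188% of probe sets. XTH26 was not called in them either (adjusted p 0.845 and 0.371). The early auxin genes had 0 of 10 calls with IPyA against L-AOPP, with and without the block (3 above 0 and 7 below, median -0.13). Between L-AOPP+IPyA and L-AOPP+IAA, 7 of the 10 were called lower, among them GH3.3 (-3.84) and HAT2 (-2.32). The comparisons of L-AOPP alone with mock, with L-AOPP+IAA and with L-AOPP+IPyA share the 3 arrays of plants given L-AOPP alone. A high level on those arrays enters each of them.

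No member was called between mock and the groups with IAA or IPyA. In the block fit, L-AOPP+IAA differed from mock by 0.30 for EXPA7 (95% interval -0.18 to 0.79), by -0.02 for EXPA18 (-0.40 to 0.36) and by 0.16 for GH9C1 (-0.26 to 0.58), with adjusted p-values of 0.660 to 0.981 and 1.7% of probe sets called (0.446% without pairing). L-AOPP+IPyA differed from mock by 0.10 (-0.38 to 0.58), 0.07 (-0.31 to 0.46) and -0.03 (-0.45 to 0.39), with adjusted p-values of 0.986 to 0.995 and 0% of probe sets called (by limma, 0.942% at an unadjusted p under 0.05 without pairing). Without replicate 1, the block fit put L-AOPP+IAA above mock by 0.58 for EXPA7 (0.30 to 0.85, adjusted p = 0.0656), 0.06 for EXPA18 (-0.20 to 0.32, adjusted p = 0.961) and 0.32 for GH9C1 (0.02 to 0.62, adjusted p = 0.528). It put L-AOPP+IPyA above mock by 0.48 (0.20 to 0.75, adjusted p = 0.789), 0.27 (0.01 to 0.53, adjusted p = 0.996) and 0.13 (-0.17 to 0.43, adjusted p = 0.996). In replicate 1 all 3 genes were lower than mock with IAA and with IPyA, and in replicate 3 all were higher. IPyA and IAA differed by -0.20 (-0.69 to 0.28), 0.09 (-0.29 to 0.48) and -0.19 (-0.61 to 0.23), with adjusted p-values of 0.866 to 0.954 and 1.94% of probe sets called (0.377% without pairing).

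By group mean, EXPA7 stood at 982 ± 535 (SD, n = 3) with L-AOPP, 836 ± 947 in mock, 830 ± 694 with L-AOPP+IAA and 681 ± 481 with L-AOPP+IPyA. EXPA18 stood at 819 ± 302 with L-AOPP, 613 ± 516 in mock, 577 ± 340 with L-AOPP+IPyA and 577 ± 425 with L-AOPP+IAA. GH9C1 stood at 1171 ± 607 with L-AOPP, 1019 ± 1058 in mock, 1011 ± 867 with L-AOPP+IAA and 882 ± 755 with L-AOPP+IPyA. L-AOPP was the highest group for each gene. The ranges of every pair of groups overlapped, and no neighbours in these orders differed beyond their spread. Neither result can decide whether treatments differed for these genes. Each group holds an array of the replicate number that stood apart, which lay above every array of the other numbers. The ranges therefore had to overlap, and the SD of each group includes that split. The shares of probe sets that follow are no yardstick for these genes. Ranges did not overlap for 7.74% of tested probe sets between L-AOPP and mock, for 10.2% between L-AOPP+IAA and L-AOPP and for 6.01% between L-AOPP+IPyA and L-AOPP. The share was 7.51% between L-AOPP+IAA and mock, 3.98% between L-AOPP+IPyA and mock and 7.22% between L-AOPP+IPyA and L-AOPP+IAA.

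The 3 genes followed each other from array to array. Because replicate 1 forms a separate cluster, likeness is given over the 8 arrays of replicates 2 and 3 and, over all 12 arrays, for log2 signals taken relative to the mean of their replicate number. Pearson's r of EXPA7 was 0.86 with GH9C1 and 0.89 with EXPA18 over the 8 arrays, and 0.94 and 0.87 relative to replicate means. EXPA18 and GH9C1 had 0.76 and 0.89. These are descriptions of arrays that share treatments and replicate numbers.

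Genes with the most similar profile were ranked by r of log2 signal over the 12 arrays among 8708 tested probe sets with 1 gene. The rule gave 13 genes, with r over 12 arrays of 0.966 to 0.997, a range that includes the separate cluster of replicate 1. The r over 8 arrays was 0.885 to 0.990 and that relative to replicate means 0.867 to 0.987. For 12 of the 13, all 4 replicate 1 arrays were above the other 8 (5.07% of all tested probe sets), which choosing by r over the 12 arrays favours. The first in rank was AT5G06630 for EXPA7, AT4G25790 for EXPA18, AT3G49960 for GH9C1 and AT4G31250 for the mean of the 3. AT4G31250 read 892.6, 154.4 and 176.5 in replicates 1, 2 and 3 of mock and 835.1, 287.5 and 327.8 with L-AOPP. It then read 798.2, 179.8 and 192.3 with L-AOPP+IAA and 672.9, 176.9 and 203.7 with L-AOPP+IPyA, so L-AOPP was highest in replicates 2 and 3 and mock in replicate 1. AT3G49960 read 7760.8, 1296.7 and 1163.7 in mock and 6534.9, 2351.6 and 2973.9 with L-AOPP.

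The others that the rule named were AT4G26010, AT5G04960, HRGP1, AT1G30870, PMM, AT4G32870, AT2G41970, AT5G19800 and AT1G34510. HRGP1 encodes a hydroxyproline-rich glycoprotein, a structural protein of the wall. It averaged a signal of 9906 in replicate 1, 3123 in replicate 2 and 3458 in replicate 3. PMM, for phosphomannomutase, an enzyme that supplies mannose for sugar nucleotides, had a shallower profile, with 3340, 2696 and 2906. AT5G19800, which the reference table also names HRGP2, averaged 998, 291 and 272. The remaining loci carry no other name in the tables used here. Choosing by r over the 12 arrays also favours a shared order of treatments, yet not all 13 genes had it. In replicate 1, PMM (3463.1 against 3356.5) and AT4G32870 (580.6 against 494.7) read higher with L-AOPP than in mock. In replicate 2, HRGP1 read highest with L-AOPP+IAA (3644.7 against 3606.6 with L-AOPP).

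**Figure D4:**
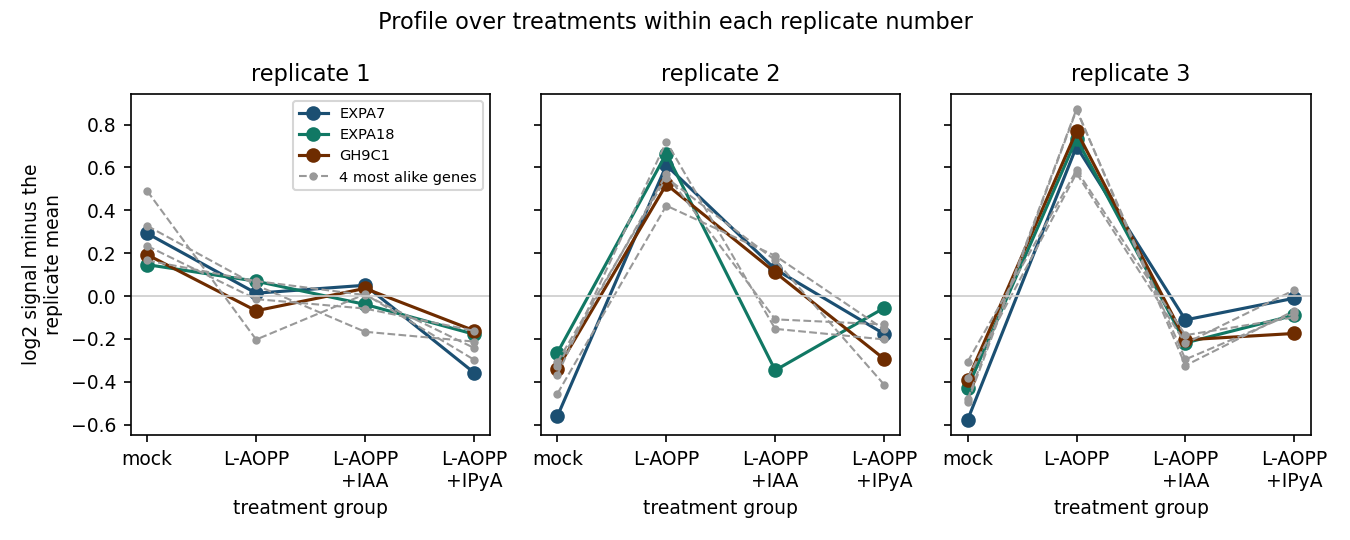
Log2 signal of EXPA7, EXPA18 and GH9C1 (solid lines) and of the 4 genes ranked first for likeness (dashed lines) over the treatment groups, minus each gene's mean within the replicate number. In replicates 2 and 3 all 7 lines peak at L-AOPP, and in replicate 1 all 7 start highest at mock. The 4 genes were picked by r over these same arrays, which favours a shared order of treatments.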

How the data were processed

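Signals of 12 single-colour arrays hybridised with biotin-labelled cRNA were used, 3 per treatment group. The deposited values are probe set intensities on a linear scale, and MAS5 is the tool the submitters' processing notes name (per the labels, without version or scaling step). Each array's mean, after removal of 2% of probe sets at each end, lies between 500.04 and 500.05. Of 22810 probe sets, 64 are controls. The platform annotation pairs 13513 with 1 gene, 503 with several and does not list 8730, and 13436 were matched to a locus. Signals under 0.05 were raised to 0.05, log2 was taken, and 6824 probe sets whose mean did not exceed percentile 30 (47.4 as a signal) were left out, leaving 15922. limma 3.58.1 in R 4.3.3 (lmFit, contrasts, eBayes with an intensity trend) was fitted over all arrays, without pairing as the reference fit, two-sided, with Benjamini-Hochberg adjustment over all tested probe sets and a threshold of 0.05. The code was tested on simulated data. Replicate numbers were taken to pair arrays: deviations from group means correlated at 0.501 to 0.685 between the 18 array pairs of one number and at -0.582 to 0.123 between the 36 of different numbers. The fit with the number as a block is therefore given too. The genes named are the 3 members, the 5 genes most like each member and like their mean, up to 4 called genes of each of 10 lists, and GH3.3 and HAT2. Of 308 list entries, 284 were matched to a gene by symbol or synonym, 61 genes had a named probe set and 48 were tested, and the ethylene list had 0. The members and lists were chosen with earlier results of these data known. Alternatives were quantile normalization, no filter, no intensity trend, log2(signal + 50), fits of only the groups compared, the block, and leaving out arrays, replicate numbers or groups.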

Additional observations from a re-analysis of the deposited data

How the results depend on the processing

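In the fit without pairing no member was called in any treatment comparison, and this held under every alternative except the block fit without replicate 1. The member calls of that fit are a description, since these genes stood apart in replicate 1. No filter, no intensity trend, log2(signal + 50) and quantile normalization kept each side of the threshold, except that quantile normalization called EXPA18 in replicate 3 against 2 (0.46). That contrast was also called without the L-AOPP group (0.38) and without the mock group (0.46). GH9C1 there changed sign to 0.036 without the L-AOPP+IAA group.

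The replicate block moved the counts of called probe sets to 92 (L-AOPP against mock), 590 (L-AOPP+IAA against L-AOPP), 28 (L-AOPP+IPyA against L-AOPP), 270 (L-AOPP+IAA against mock) and 309 (L-AOPP+IPyA against L-AOPP+IAA), from 0, 63, 0, 71 and 60. It changed no call of a member. The replicate block without replicate 1 gave 329, 627, 75, 168 and 222, and called EXPA7, EXPA18 and GH9C1 at 1.22, 1.05 and 1.01 (L-AOPP against mock), -0.65, -0.98 and -0.69 (L-AOPP+IAA against L-AOPP) and -0.75, -0.77 and -0.88 (L-AOPP+IPyA against L-AOPP). Signs turned there for EXPA18 in L-AOPP+IAA against mock (0.063) and GH9C1 in L-AOPP+IPyA against mock (0.13). The replicate block without replicate 2 gave 119, 145 and 118 calls for L-AOPP+IAA against L-AOPP, L-AOPP+IAA against mock and L-AOPP+IPyA against L-AOPP+IAA. Signs turned for EXPA18 in L-AOPP+IAA against mock (0.012), EXPA7 in L-AOPP+IPyA against mock (-0.041) and EXPA18 between IPyA and IAA (-0.0049). The replicate block without replicate 3 gave 6, 193, 3, 121 and 118 calls, in the order of the block counts above, and turned EXPA7 (-0.13) and EXPA18 (-0.058) in L-AOPP+IPyA against mock. Fits of 2 groups alone gave 38 calls for L-AOPP+IAA against mock. The cause of these moves was not tested.

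Leaving out 1 array at a time, without pairing, called no member, but 1 array moved the differences widely, most upward for L-AOPP against mock without mock replicate 1. For EXPA7, EXPA18 and GH9C1 they ran from 0.19 to 1.64, 0.29 to 1.32 and 0.15 to 1.41 (L-AOPP against mock), from -1.06 to -0.0045, -1.26 to -0.27 and -1.09 to -0.00030 (L-AOPP+IAA against L-AOPP), and from -1.16 to -0.21, -1.05 to -0.28 and -1.27 to -0.22 (L-AOPP+IPyA against L-AOPP). Ranges for L-AOPP+IAA against mock were -0.34 to 1.22 (EXPA7), -0.58 to 0.63 (EXPA18) and -0.50 to 0.98 (GH9C1). For L-AOPP+IPyA against mock they were -0.44 to 1.02, -0.37 to 0.72 and -0.69 to 0.79, and between IPyA and IAA -0.74 to 0.44, -0.36 to 0.66 and -0.85 to 0.47. Calls ranged from 23 to 37 for L-AOPP+IAA against L-AOPP, from 30 to 69 for L-AOPP+IAA against mock and from 25 to 48 between IPyA and IAA. Between replicate numbers, counts were 2488 (replicate 2 against 1) and 2966 (3 against 2) without the L-AOPP+IAA group, and 3216 (3 against 1) and 3180 (3 against 2) without the L-AOPP+IPyA group. All members stayed lower in replicates 2 and 3 than in replicate 1 under every alternative run. This is a description too, since the members were chosen with their spread between replicates known. Other probe sets of the members could not be tried, since each has 1.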
